A study of Mus musculus with 5 samples.

Results

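AP-1 is a dimeric transcription factor, and the genes described here encode its FOS, JUN and BATF subunits together with Atf3. They were taken by symbol: the 4 FOS genes Fos, Fosb, Fosl1 and Fosl2, the 3 JUN genes Jun, Junb and Jund, the 2 BATF genes Batf and Batf3, and Atf3. These are 10 of the 56691 gene IDs in the count table, and all 10 were among the 30580 genes with enough counts to be tested. Total RNA had been prepared from natural killer (NK) cells of mouse spleen after CRISPR editing of Fli1 in 3 libraries, named Fli1 KO, or with the control named NTC in 2 libraries. FLI1 protein is an ETS family transcription factor that binds DNA around a GGAA core. By its title, the series concerns protein homeostasis under nutrient stress and how long NK cells last in solid tumours. The labels used here name no strain, age, guide sequence, culture condition or stimulus. Libraries were made by probe capture from bulk RNA, so fewer cells that express a gene and less RNA per cell cannot be told apart.

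Each AP-1 subunit carries a basic region that touches DNA and a leucine zipper that pairs it with a partner. JUN proteins can pair with one another or with a FOS, BATF or ATF protein, whereas FOS and BATF proteins need a partner from outside their own group, usually a JUN protein. FOS:JUN dimers activate genes through the AP-1 site. In lymphocytes the small BATF proteins, which lack the activation domains of FOS, bind composite sites with a JUN protein and an IRF factor. Fos, Fosb, Jun, Junb and Atf3 are classical early response genes, switched on within minutes of receptor or stress signals and soon shut off again.

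The promoters of the early response members are shown first, because 2 of the 3 members called higher in Fli1 KO, Fos and Junb, are of this class. RefSeq promoter windows of 300 bases (GRCm38.p6, 250 before and 50 after the start site) were found for 9 of the 10 members. Fosl1 was the exception. The windows were searched on both strands for the AP-1 site TGANTCA, the cyclic AMP response element (CRE) TGACGTCA, the CArG box bound by SRF, the ETS site CCGGAAGT and the TATA box TATAAA. After the sequences had been seen, the CRE core TGACG and the form TGACNTCA, which also takes in the CRE, were added. The bases from -120 to -1 are printed for Fos (chr12:85473770-85473889, plus strand), Junb (chr8:84978749-84978868, minus strand) and Jun (chr4:95052223-95052342, minus strand), 5′ to 3′, with the matched words in capitals:
Fos: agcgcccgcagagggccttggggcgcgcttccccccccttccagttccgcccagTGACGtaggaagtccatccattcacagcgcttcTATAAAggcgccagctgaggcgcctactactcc
Junb: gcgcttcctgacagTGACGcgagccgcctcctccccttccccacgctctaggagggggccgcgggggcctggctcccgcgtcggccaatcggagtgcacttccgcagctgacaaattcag
Jun: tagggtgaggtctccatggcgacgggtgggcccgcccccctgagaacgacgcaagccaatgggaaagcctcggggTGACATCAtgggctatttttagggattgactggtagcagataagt

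Fos held a TATA box at -33 and CRE cores at -66 and -129, Junb a CRE core at -106, and Jun the word TGACATCA at -45. Fosb, Batf and Atf3 also held a CRE core. Thus 5 of the 9 members with a window had one, where 20.8% of the 32851 windows of all genes did. Because the core was chosen after these windows had been seen, this count describes them and is no test. GC upstream of the start ran from 46.4% in Batf to 76.0% in Batf3, with a median of 52.4% over all windows. The part of GC in the count was not tested. TGACNTCA, found in Jun, was in 8.83% of all windows. TATAAA lay in the windows of Fos and Junb, in Junb only from position 1 onward, and in 13.6% of all windows. For Junb the GENCODE start lies 30 bases downstream of the RefSeq start, so this word is upstream of the GENCODE start. The complete AP-1 site, the complete CRE, the CArG box and the ETS word CCGGAAGT were in 0 of the 9 windows, and in 7.81%, 1.79%, 1.63% and 3.89% of all windows. The bare core GGAA, around which FLI1 binds, was not searched. It stands in the printed bases of Fos (taggaagt), Junb (cacttccg, on the other strand) and Jun (gggaaa). The missing ETS word therefore does not show that these windows lack ETS sites. Fosl2, Jund and Batf3 held no match to any word searched. The start site that RefSeq gives lies 34706 bases from the start of the gene in GENCODE for Atf3, 1210 for Jund, 671 for Fosl2 and 567 for Batf3, so the windows of these 4, including the one with the CRE core of Atf3, may not cover the start used in these cells.

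Each library held between 4718390 and 5643791 counts. Genes that NK cells do not use, 1453 olfactory and vomeronasal receptor genes, gave 1.52, 1.69 and 1.48 CPM per kb of exon in Fli1 KO 1 to 3 and 1.39 and 1.78 in NTC 1 and NTC 2. CPM are counts scaled to library size, here with TMM factors. This density, multiplied by a gene's exon length, is called its background. NK markers were present throughout (12 of 12 over 3 times background). Among 48 markers of other blood, immune and stromal cells 3 were (Cd28, Cd68 and Pecam1), and 0 markers of any kind were called. Fli1 RNA, the edited gene, stood at 389.6, 320.2 and 361 CPM in Fli1 KO 1 to 3, and NTC 1 and NTC 2 had 322 and 279 CPM. The groups overlapped (edgeR adjusted p = 0.641). Since a small edit can leave the transcript in place, gene-level counts cannot show it, and directions for Fli1 KO rest on the labels.

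Among the JUN genes, Junb rose about 4-fold in Fli1 KO while Jund and Jun lay slightly above NTC without passing the test. Junb encodes a JUN protein induced early after activation, which often tempers the activity of JUN itself. Junb RNA (ENSMUSG00000052837, GRCm38 chromosome 8, 84974484 to 84978718) was measured at 212 and 174 CPM in NTC 1 and NTC 2 and at 1044, 574 and 765 CPM in Fli1 KO 1 to 3. The lowest Fli1 KO library lay far above the highest NTC library, and Fli1 KO 1 stood above the other two. NTC averaged 193 ± 27.3 CPM (SD, n = 2) and Fli1 KO 794 ± 236 CPM (SD, n = 3). The fold was 4.11 (log2 fold change 2.04, SE 0.22, adjusted p = 0.000184 in the edgeR quasi-likelihood fit over all genes).

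Jund, the JUN gene that most resting cells express steadily (ENSMUSG00000071076, chromosome 8, 70698949 to 70700616), was at 584 and 399 CPM in NTC and at 849, 617 and 707 CPM in Fli1 KO. The groups did not overlap, but the gap between the highest NTC and the lowest Fli1 KO library was narrow. Its log2 fold change of 0.56 (SE 0.17) was not called by edgeR (adjusted p = 0.227). The call differed between fits. With the replicate number as a block the log2 fold change was 0.59 (edgeR adjusted p = 8.6e-06). Without NTC 1 the log2 fold change was 0.88 (adjusted p = 0.000253), and without NTC 2 it was 0.32 (adjusted p = 0.767). NTC 2, where Jund was lowest, also had the highest background density of the 5 libraries, and the part of this in the result was not tested.

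Jun, the founding member and the usual partner of FOS (ENSMUSG00000052684, chromosome 4, 95049034 to 95052222), was at 124 and 145 CPM in NTC and at 169, 159.8 and 155 CPM in Fli1 KO. All 3 Fli1 KO libraries were above both NTC libraries by a small margin. The log2 fold change was 0.26 (SE 0.13, edgeR adjusted p = 0.589). Jun and Jund consist of 1 exon each, so their counts hold no spliced reads that would set RNA apart from DNA, yet in NTC they stood 26.6 and 186 times above background. Genes on the opposite strand overlap all 3 JUN genes, and the strand setting of the counting is not given. These neighbours were low, at 32.8 to 52.3 CPM for Prdx2 beside Junb, 10.3 to 15.7 CPM for Junos beside Jun and 2.77 to 4.64 CPM for Gm11175 beside Jund, and edgeR called 0 of the 3 (adjusted p from 0.646 to 0.880).

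In the FOS family the change lay in Fosl2 and Fos. Fosl2 encodes FRA-2, a FOS protein without the strong activation domain of FOS, and it was by far the most abundant FOS transcript. Fosl2 RNA (ENSMUSG00000029135, chromosome 5, 32135801 to 32157842) was at 113 and 112 CPM in NTC and at 376, 226 and 343 CPM in Fli1 KO. The NTC libraries were almost equal, and every Fli1 KO library lay well above them. NTC averaged 112 ± 0.904 CPM (SD, n = 2) and Fli1 KO 315 ± 79.2 CPM (SD, n = 3), a fold of 2.80 (log2 fold change 1.49, SE 0.18, edgeR adjusted p = 0.000138).

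Fos itself, the prototype early response gene (ENSMUSG00000021250, chromosome 12, 85473890 to 85477273), had 14 and 16 counts in NTC and 80, 58 and 64 in Fli1 KO. In CPM these were 2.43 and 3.34 against 16.1, 10.3 and 12.9, with no overlap. The log2 fold change was 2.19 (SE 0.29, edgeR adjusted p = 0.000163). Both NTC values lay below the background for a gene of this length (3.26 and 4.19 CPM), whereas the Fli1 KO mean was 3.57 times it. A rise was therefore measured, but its fold has no firm base, since no Fos RNA above background was detectable in NTC at this depth.

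Fosb, another early FOS gene that also yields a shortened inhibitory form, was at 8.15 and 7.10 CPM in NTC and at 13.9, 10.9 and 14.5 CPM in Fli1 KO. The Fli1 KO libraries were again above both NTC libraries, but close to the background of 9.21 to 10.6 CPM that its length gives there. The log2 fold change of 0.77 (SE 0.22) was not called (edgeR adjusted p = 0.172). Fosl1, which encodes FRA-1, was at 3.12 and 3.13 CPM in NTC and at 4.64, 2.85 and 2.82 CPM in Fli1 KO. These values overlapped and equalled background (1.08 times in Fli1 KO and 0.972 times in NTC). Ccdc85b, which overlaps Fosl1 on the opposite strand, had more counts than Fosl1 (20.96 to 26.7 CPM).

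The BATF genes lay lower in Fli1 KO, but neither passed the test. Batf, which opens chromatin with IRF4 in activated lymphocytes (ENSMUSG00000034266, chromosome 12, 85686669 to 85709087), was at 19.8 and 20.1 CPM in NTC and at 16.3, 17.1 and 18.1 CPM in Fli1 KO. The groups did not overlap, and both were tight. The log2 fold change was -0.21 (SE 0.17, edgeR adjusted p = 0.777), with 8.95 times background in NTC and 7.83 times in Fli1 KO. Batf3, best known from the development of cross-presenting dendritic cells, was at 3.47 and 3.34 CPM in NTC and at 2.42, 2.32 and 2.02 CPM in Fli1 KO. This was near background in both groups (log2 fold change -0.59, SE 0.35, edgeR adjusted p = 0.663). Atf3, a stress-induced partner of JUN proteins, was at 5.03 and 3.13 CPM in NTC and at 5.85, 3.57 and 4.03 CPM in Fli1 KO. Those groups overlapped at 1.20 and 1.33 times background (log2 fold change 0.10, SE 0.32, edgeR adjusted p = 0.961).

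**Figure D1:**
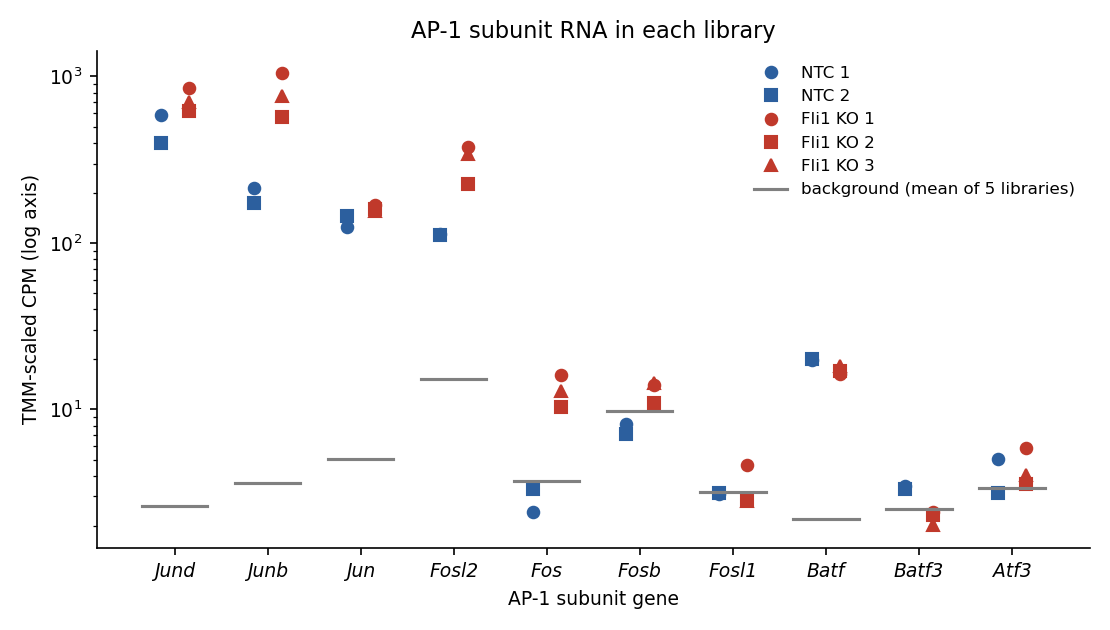
TMM-scaled CPM (log axis) of the 10 AP-1 subunit genes in the 2 NTC libraries (blue) and the 3 Fli1 KO libraries (red), with the grey bar marking the background for each gene's exon length, averaged over the 5 libraries. Junb, Fosl2 and Fos are widely separated between groups. Jund, Jun and Batf lie well above background, with groups that do not overlap but are close together. Fosb lies near background, and Fosl1, Batf3 and Atf3 sit on it.

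Of the 10 members, 3 were called higher (Fos, Fosl2 and Junb) and 0 lower. Over all 30580 genes tested 0.458% were called higher, 0.0883% lower and 0.546% in either direction, and among the 7603 genes over 3 times background 1.71% were called higher. The members' median log2 fold change was 0.41, where that of all genes was -0.02 and that of genes over 3 times background 0.11. All 3 Fli1 KO libraries lay above both NTC libraries in 6 members and below them in 2 (11.9% and 13.7% of all genes tested, 26.3% and 7.80% of those over 3 times background). With library size alone as the scaling, which moved the median of all genes to -0.14, the calls over all genes were 92 higher and 71 lower in place of 140 and 27. The same 3 members were called there too. Junb and Fosl2 were called in each of the 14 alternatives, with log2 fold changes of 1.80 to 2.25 and 1.35 to 1.70. Fos was called in each of the 13 that tested it, at 1.98 to 2.42. Whether the libraries stem from different animals is not stated. The p-values therefore reflect only how far these samples scatter, which may be technical.

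**Figure D2:**
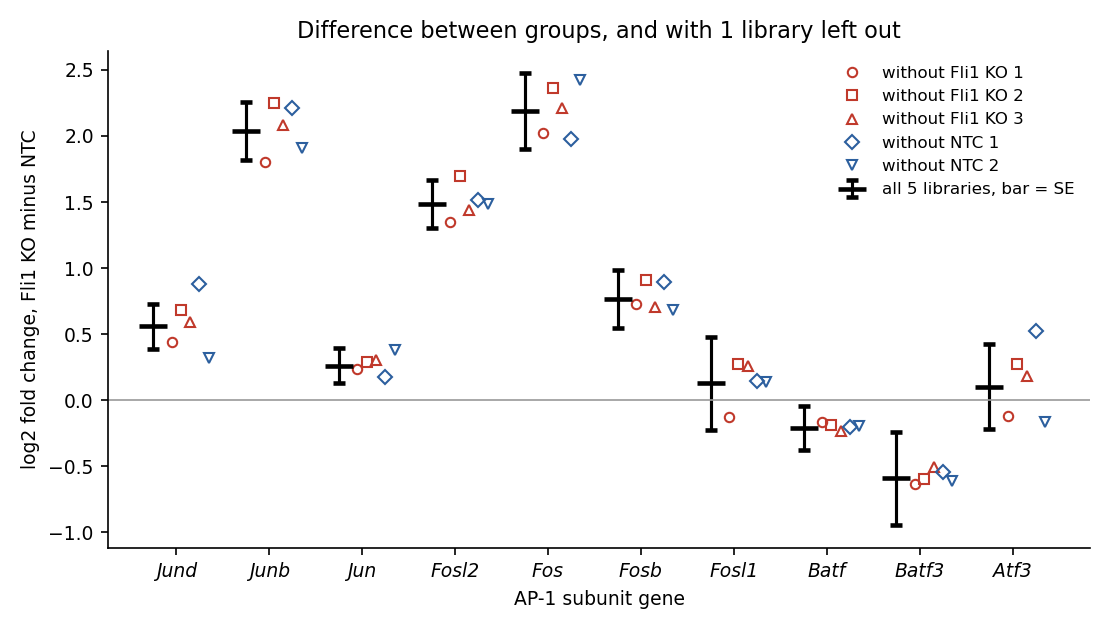
Log2 fold change (Fli1 KO minus NTC) of each member with all 5 libraries (black, bar = SE) and with 1 library left out (red symbols for Fli1 KO libraries, blue for NTC libraries). Junb, Fosl2 and Fos stay above 1.3 throughout, Jund moves between 0.32 and 0.88 with the NTC library left out, and Fosl1 and Atf3 lie on both sides of 0.

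The 3 Fli1 KO libraries differed among themselves. Junb was 1.82 times, Fosl2 1.67 times and Fos 1.56 times as high in the highest as in the lowest of them, against 1.22, 1.01 and 1.38 times between the NTC libraries. Fli1 KO 1 was highest and Fli1 KO 2 lowest for Fos, Fosl2, Junb, Jund and Atf3. The same order held for 45.2% of all genes over 3 times background and for 20.6% of all genes tested. Fli1 KO 2 also had the highest background density of the 3, and the part of that in this order was not tested. Jun and Batf varied little in either group, by 1.09 and 1.11 times within Fli1 KO and 1.17 and 1.01 times within NTC.

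Levels of different genes were compared per kb of exon. Probe capture may favour some genes over others, and this was not tested. In NTC the order was Jund (294 ± 78.4 CPM per kb, SD, n = 2), Junb (83.9 ± 11.9), Jun (42.2 ± 4.57), Batf (14.2 ± 0.146) and Fosl2 (11.6 ± 0.0934). The other 5 members lay between 1.22 and 2.13 CPM per kb, near the background density, and cannot be ordered. In Fli1 KO it was Jund (434 ± 70.3 CPM per kb, SD, n = 3), Junb (345 ± 103), Jun (50.5 ± 2.27), Fosl2 (32.6 ± 8.18), Batf (12.2 ± 0.640) and Fos (5.58 ± 1.23). Fosl2 thus stood below Batf in both NTC libraries and above it in all 3 Fli1 KO libraries. The ranges of Jund and Junb overlapped in Fli1 KO and were apart in NTC.

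JUN proteins are the usual partners of FOS and BATF proteins, and the makeup of JUN RNA was described in each library. Junb made up 19.2% and 20.99% of summed JUN RNA per kb in NTC and 44.7%, 37.3% and 41.3% in Fli1 KO. No library of one group reached the other, and the means were 20.1% ± 1.27 (SD, n = 2) and 41.1% ± 3.70 (SD, n = 3). Jund fell as a share from 72.7% and 66.4% to 50.1%, 55.3% and 52.7%, although its own level did not fall. Jun went from 8.09% and 12.6% to 5.21%, 7.49% and 6.02%. These shares are a description of genes chosen with their changes known, and no test was made on them. Which of Junb and Jund was more abundant in Fli1 KO depended on the length used: the ratio of Junb to Jund was 0.891, 0.674 and 0.784 per kb of all exons and 1.13, 0.858 and 0.997 per kb of the longest transcript. In NTC it was 0.264 and 0.316, or 0.336 and 0.402.

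FOS RNA was scarce beside JUN RNA in every library. Summed JUN RNA was 481 and 359.9 CPM per kb in NTC and 1016, 669 and 805 in Fli1 KO, and summed FOS RNA was 15.6 ± 0.0677 CPM per kb (SD, n = 2) in NTC and 50.2, 30.9 and 44.7 in Fli1 KO. The ratio of JUN to FOS RNA was 30.9 and 23.0 in NTC and 20.2, 21.7 and 18.0 in Fli1 KO, so it was lower in each Fli1 KO library than in either NTC library. With background subtracted it was 45.7 and 36.3 against 22.9, 27.3 and 20.6. Per kb of the longest transcript the ratio was 22.7 and 17.1 against 16.0, 16.8 and 14.0, so the groups were barely apart. Fosl2 gave 75.1% and 73.8% of FOS RNA in NTC and 77.4%, 75.5% and 79.4% in Fli1 KO. That small gain reversed when background was subtracted (98.6% and 100% in NTC, 84.6%, 88.7% and 87.5% in Fli1 KO), because the other FOS genes then fell to almost nothing in NTC. Under both methods Fosl2 was the main FOS transcript. JUN to BATF ratios were 29.6 and 22.0 in NTC and 77.3, 49.1 and 56.8 in Fli1 KO. RNA shares do not give protein levels or dimers, which were not measured here.

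**Figure D3:**
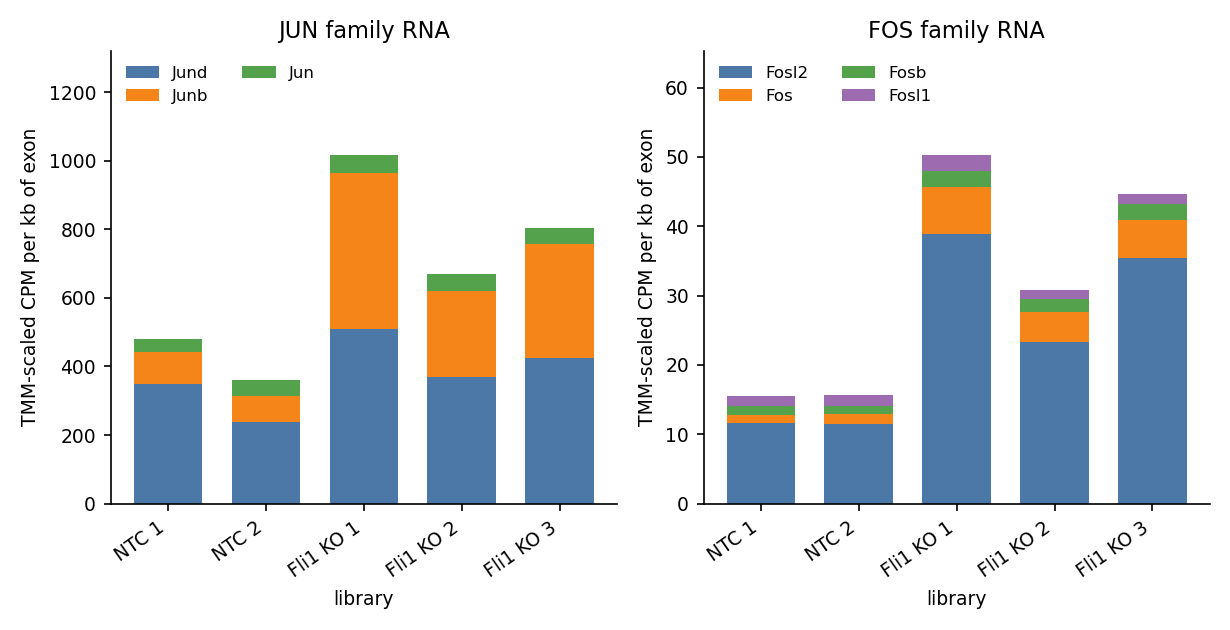
Stacked TMM-scaled CPM per kb of exon of the JUN genes (left) and the FOS genes (right) in each library, on separate vertical scales that start at 0. The Junb layer takes 19.2% to 20.99% of the JUN bar in NTC and 37.3% to 44.7% in Fli1 KO, and Fosl2 fills most of each FOS bar.

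The genes most like the 3 called members across the 5 libraries were found by the root mean square difference of their centred log2 CPM, among genes with at least 5 CPM and over 3 times background. Nearest to Junb were Dusp5, a phosphatase that acts on ERK (difference 0.080), the survival kinase gene Pim3 (0.088) and the NK effector cytokine gene Ifng (0.14). Nearest to Fosl2 were Dusp1, a phosphatase of stress kinases (0.096), the polo-like kinase gene Plk3 (0.13) and the cytokine gene Osm (0.13). Nearest to Fos were Csrnp1 (0.11), Dusp5 (0.17) and the activation marker gene Cd69 (0.19). The median gene differed from these members by 0.69 to 0.98. Because these neighbours were chosen to follow called members across the same libraries, that edgeR called all 8 of them higher was fixed by the choice and is no result. Their log2 fold changes ran from 1.32 for Plk3 (adjusted p = 0.00301) to 2.15 for Csrnp1 (adjusted p = 5.3e-06), and only Plk3 lost its call when a library was left out (without Fli1 KO 1, 1.12, adjusted p = 0.078). Among the members, Fos and Junb differed by 0.23, Fosl2 and Junb by 0.30 and Fos and Fosl2 by 0.33. Junb and its relative Jund differed by 0.72 and Junb and Jun by 0.90. Pairs of members that were not called ran from 0.18 (Fosb and Jund) to 0.65 (Fosb and Batf3). Closeness was thus not particular to the called members. Since all 3 of them were called higher, their nearness to one another follows in part from the calls and is no result.

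Some other bZIP proteins can replace a FOS or JUN subunit. The list of other bZIP genes was wider than these. Of its 24 genes tested, 4 were called higher and 1 lower, with a median log2 fold change of -0.04. Over all genes tested 0.458% were called higher and 0.0883% lower, and among genes over 3 times background 1.71% and 0.289%. Maff, a small MAF protein that lacks an activation domain, had the largest rise, from 21.4 ± 4.83 CPM (SD, n = 2) to 72.2 ± 22.8 CPM (SD, n = 3). Its log2 fold change was 1.74 with an SE of 0.27 (edgeR adjusted p = 0.0261). Cebpb (log2 fold change 1.13), the cyclic AMP responsive modulator gene Crem (0.84) and Atf4 (0.76) also rose, and Nfe2l2, the oxidative stress factor NRF2, was lower at 39.0 ± 4.58 and 23.4 ± 1.88 CPM (-0.73, edgeR adjusted p = 0.0261). Maff alone of the 5 kept its call without each library in turn. Cebpb lost it without Fli1 KO 1 (0.96, adjusted p = 0.10). Crem lost it without Fli1 KO 1 (0.77, adjusted p = 0.125) and Fli1 KO 3 (0.84, adjusted p = 0.125). Atf4 lost it without Fli1 KO 1 (0.70, adjusted p = 0.229), Fli1 KO 3 (0.76, adjusted p = 0.219) and NTC 2 (0.60, adjusted p = 0.175). Nfe2l2 was called without NTC 1 and in no other such fit (-0.78 to -0.60, adjusted p from 0.0826 to 0.26), nor by DESeq2. Jdp2, a repressor that pairs with JUN proteins, averaged 27.5 ± 2.81 CPM (SD, n = 2) and 22.1 ± 2.21 CPM (SD, n = 3) in NTC and Fli1 KO (edgeR adjusted p = 0.597), and Batf2 was at or below background.

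Upstream of AP-1 stand the kinases and the factors that switch on FOS and JUN genes. Lists of this size would hold 0 or 1 call at the share over all genes (0.546% in either direction), so their counts do not set them apart. Of 27 kinases tested 1 was called higher and 0 lower (median log2 fold change 0.12, against 0.11 for genes over 3 times background). It was Map2k1, which encodes the ERK kinase MEK1, with an NTC mean of 55.9 ± 12.3 CPM (SD, n = 2) and a Fli1 KO mean of 96.1 ± 13.7 CPM (SD, n = 3; log2 fold change 0.78, edgeR adjusted p = 0.0202). Map2k1 was not called without Fli1 KO 1 (0.67, adjusted p = 0.286), Fli1 KO 3 (0.80, adjusted p = 0.194) or NTC 2 (0.58, adjusted p = 0.233), and without NTC 1 there were 4 calls on this list, with Mapk3, Map2k3 and Map3k1 beside it. Of 15 such factors edgeR called 0, with 5 at an unadjusted p under 0.05, and DESeq2 and limma-voom called 0 as well. With the replicate number as a block, edgeR called 4 higher (Srf, Mef2a, Mef2d and Stat3) and 1 lower (Mrtfb). In that fit Fli1 KO 3 has no NTC library of its number and adds nothing to the difference. Mef2d had the smallest p (NTC 102 ± 0.296 CPM, Fli1 KO 138 ± 6.004 CPM, log2 fold change 0.44, edgeR adjusted p = 0.210, or 0.0136 with the block), and Srf, which binds the CArG box, was at 52.7 ± 8.35 and 74.5 ± 8.93 CPM (0.49, edgeR adjusted p = 0.212). Without NTC 1, Srf, Mef2a and Stat3 were called higher.

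Among 17 genes that act on AP-1 after transcription, 2 were called higher and 0 lower (median log2 fold change 0.10). The shares over all genes tested were 0.458% and 0.0883%, and among genes over 3 times background 1.71% and 0.289%. Zfp36, whose protein TTP binds AU-rich elements and speeds the decay of early response transcripts such as Fos, rose from 32.3 ± 4.87 CPM (SD, n = 2) to 94.7 ± 13.4 CPM (SD, n = 3), a fold of 2.92 (edgeR adjusted p = 6.3e-06). Dusp1, which switches off the kinases that phosphorylate JUN, rose 2.84-fold (19.3 ± 0.793 to 55.0 ± 15.1 CPM, edgeR adjusted p = 0.000331). Both kept their calls without each library in turn. The ligases that mark JUN for degradation, Fbxw7, Itch and Cop1, had log2 fold changes of 0.22, -0.14 and 0.19 and were not called (edgeR adjusted p from 0.718 to 0.818).

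Of 17 proteins that bind DNA with AP-1, 1 was called higher and 1 lower (median log2 fold change 0.25), and both are IRF partners of BATF and JUN. The shares over all genes tested were 0.458% and 0.0883%, and among genes over 3 times background 1.71% and 0.289%. Irf8 had means of 333 ± 61.0 CPM (SD, n = 2) for NTC and 675 ± 129 CPM (SD, n = 3) for Fli1 KO (log2 fold change 1.02, edgeR adjusted p = 0.00321), and Irf4 at 40.7 ± 1.36 and 21.8 ± 3.50 CPM (-0.90, edgeR adjusted p = 0.00594). Neither was called without Fli1 KO 1 (Irf8 0.90, adjusted p = 0.102; Irf4 -0.77, adjusted p = 0.117) or without Fli1 KO 3 (1.02, adjusted p = 0.0862; -0.97, adjusted p = 0.0502). Without NTC 1 there were 4 higher calls, with Runx1, Runx3 and Rela beside Irf8. The NFAT genes Nfatc1, Nfatc2 and Nfatc3 had log2 fold changes of 0.15 to 0.27, none of them called (edgeR adjusted p from 0.592 to 0.805).

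Of 27 textbook AP-1 target genes tested, 2 were called higher and 0 lower (median log2 fold change 0.22), and DESeq2 called 4, with Vegfa and Fasl beside those 2. In edgeR the shares over all genes tested were 0.458% and 0.0883%, and among genes over 3 times background 1.71% and 0.289%. Cd69, an early activation marker, rose from 39.8 ± 2.54 CPM (SD, n = 2) to 158 ± 20.9 CPM (SD, n = 3; fold 3.96, edgeR adjusted p = 1.5e-07), and Ifng from 12.9 ± 1.93 to 49.4 ± 8.10 CPM (fold 3.81, edgeR adjusted p = 1.7e-06). Both kept their calls without each library in turn, and without NTC 1 and NTC 2 the list had 6 and 4 calls. All 3 Fli1 KO libraries lay above both NTC libraries for 10 targets and below them for 1. These shares were 11.9% and 13.7% of all genes tested, and 26.3% and 7.80% of those over 3 times background. The angiogenic factor gene Vegfa was at 101 and 43.7 CPM in NTC and at 335, 193 and 245 CPM in Fli1 KO. These groups were apart but the NTC libraries differed widely, and the log2 fold change of 1.83 was not called (edgeR adjusted p = 0.421). Mt2 (0.81), Fasl (0.59) and Lif (0.56) were also above NTC in every Fli1 KO library and not called (edgeR adjusted p from 0.05337 to 0.359). Tnf had a log2 fold change of -0.37, Il2ra -0.28, Cd44 0.13 and Ezr 0.03, none of them called (edgeR adjusted p from 0.509 to 0.977). Of the 28 targets in the table, 13 lay over 3 times background, and Mmp9, Il2, Il5, Plaur and Ccnd1 were among those that did not.

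**Figure D4:**
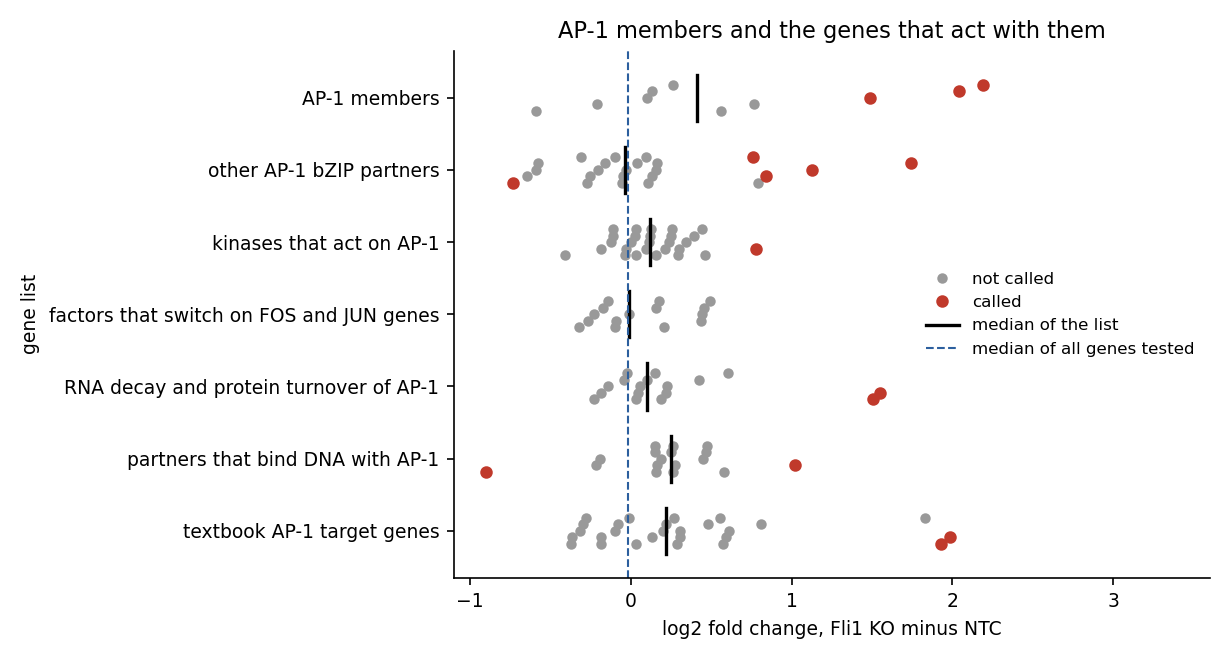
Log2 fold change (Fli1 KO minus NTC) of every tested gene of the AP-1 members and of 6 lists of genes that act with them, with called genes in red, a black bar at each list's median and a dashed line at the median of all genes tested (-0.02). The 3 called members and Maff, Zfp36, Dusp1, Ifng and Cd69 lie above 1.4, and the factors that switch on FOS and JUN genes hold no called gene.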

How the data were processed

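RNA was measured in 3 Fli1 KO and 2 NTC libraries. The deposited table holds raw counts per Ensembl gene ID, with 0 columns of other samples. Per the submitters' processing notes, the authors used FastQC 0.12.0, Trimmomatic 0.39, STAR 2.7.11 and mm10. No source used here names the counter, its strand setting or the annotation. Of 56691 IDs, 52073 (91.9%) had a symbol, coordinates and exon length in GENCODE M21 (GRCm38). Counts were fitted with edgeR 4.0.16 (R 4.3.3): filterByExpr at a minimum count of 10, TMM factors, robust quasi-likelihood test, group as the only term, Benjamini-Hochberg adjustment over 30580 genes. A gene is called at an adjusted p under 0.05. Alternatives were other scalings and filters, each library left out, a replicate block, DESeq2 1.42.0, limma-voom (limma 3.58.1) and, chosen after seeing the data, only genes over 3 times background. Exon lengths per gene are unions of exons. The members, lists and tests were chosen with earlier results of these data known. Named are the members, Fli1, per list up to 4 called genes with the smallest p (all where 5 or fewer, the smallest p where none), the 3 genes most like each called member, and further examples chosen after their values were seen. Protein sequences were not used here.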

Additional observations from a re-analysis of the deposited data

How the results depend on the processing

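Calls over all genes numbered 92 higher and 71 lower with library size alone, 239 and 56 with no filter, 728 and 193 with the replicate block, and 59 lower among genes over 3 times background, against 140 and 27. With 1 library left out they ran from 46 to 703 higher and from 3 to 174 lower. Members called higher were 3 or 4, except 2 where Fos was below the filter of 3 times background, and 0 were called lower in any alternative run. Called genes with 1 library left out ran from 1 to 5 higher and 0 to 2 lower for other bZIP partners, 0 to 4 higher for kinases, 0 to 3 higher for factors that switch on FOS and JUN genes, 0 to 4 higher and 0 to 1 lower for partners that bind DNA with AP-1, and 2 to 6 higher for target genes. With the replicate block they were 2 lower for bZIP partners, 2 higher and 1 lower for kinases, 4 higher and 1 lower for the switching factors, 4 higher for RNA decay and turnover, 4 higher for DNA partners and 6 higher for targets. Other bZIP partners called lower were 2 with library size alone and 0 by DESeq2, which called 4 targets. The cause of these moves was not tested. Deviations of libraries with equal numbers correlated at 0.069 and 0.14, and those of Fli1 KO 3 and NTC 1, of unequal numbers, at 0.077. The 2 NTC libraries deviate as mirror images, so these values cannot show whether libraries are paired. The labels do not say that a number marks a shared animal or day. Fosl1 and Atf3 changed sign with library size alone (-0.0009 and -0.0271) and without Fli1 KO 1 (-0.13 and -0.12), and Atf3 without NTC 2. With 1 library left out Fosl1 ran from -0.13 to 0.27 and Atf3 from -0.17 to 0.52. With background subtracted, the Fli1 KO minus NTC difference in percent of family was -12.4 percentage points for Fosl2, against 2.99, and 4.14 for Batf, against 2.72, because low members drop to 0. Leaving out an NTC library keeps only 1, which is taken to vary as the Fli1 KO libraries do. In the replicate block Fli1 KO 3 has no NTC library of its number, so it adds nothing to the difference. Fos, Fosb, Fosl1, Batf3 and Atf3 lay at or below 1.35 times background in NTC, so a fall in them was not detectable at this depth.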
